A study of Mus musculus with 5 samples.

Results

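The lysosome is the acidic compartment in which cells break down proteins, sugars, lipids and nucleic acids delivered by endocytosis and autophagy. Its hydrolases are made in the endoplasmic reticulum, most are tagged with mannose 6-phosphate in the Golgi, and sorting receptors with clathrin and adaptor coats carry them on towards the lysosome. Membrane glycoproteins line the compartment, and transporters and channels return the products of digestion and ions to the cytosol. In the lens, fibre cells lose their organelles as they mature, and degradation inside the cell is part of that programme. The members described here were the genes that the authors' deposited table assigned to the KEGG lysosome pathway, without the cathepsins (symbols starting with Cts), the proton pump genes (symbols starting with Atp6) and Dnase2b. A member also needed at least 10 counts in at least 2 libraries. Of 142 genes in the pathway, 28 were left out by symbol, 15 of the remaining 114 missed the count minimum, and 99 were members, of 22183 genes in the table. The rule used no difference between the groups.

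RNA was measured in whole lenses of mice at postnatal day 14, in 2 cKO and 3 Ctrl libraries, each from a pool of 4 to 6 lenses. The cKO pools came from mice with floxed Yap1 alleles and Cre (Yap1 f/f;Cre or Yap1 f/+;Cre) that had been chosen for the severe eye phenotype, in which the lenses were much reduced in size. The Ctrl pools came from littermates with floxed alleles (Yap1 f/f or Yap1 f/+) and no abnormality, although a genotype label calls them wild type. Homozygous and heterozygous animals were thus not separated in either group, and the sources used here do not name the promoter that drove Cre. Yap1 encodes YAP, which activates transcription with TEAD factors and is restrained by Hippo signalling. The comparison asks how lysosome genes differ between severely affected and unaffected lenses. The p-values measure the spread between pools.

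The libraries held 22672136 to 24320287 expected counts in cKO and 22047553 to 25762805 in Ctrl, and 12028 to 12602 genes had a count in cKO libraries, against 13972 to 14199 in Ctrl libraries. Yap1 was measured at 3.76 and 2.27 counts per 1e6 counts of the library (CPM) in the cKO libraries and at 7.19, 6.49 and 5.49 CPM in the Ctrl libraries. The groups did not overlap, but Yap1 did not pass the test (log2 fold change −1.08, SE 0.33, edgeR quasi-likelihood adjusted p = 0.0759). As a check of the lens label, 10 lens fibre genes, led by Cryaa, Crybb2 and Bfsp2, summed to 226037 and 239898 CPM in cKO and 201476 to 242470 CPM in Ctrl, nearly all of it from Cryaa and Crybb2. Of the 10, 2 were lower in cKO and 5 lay below all Ctrl libraries, beside 7.73% and 28.7% of all genes tested. Their median log2 fold change was −0.43, against −0.056 over all genes tested. The 8 lens epithelium genes, led by Sfrp1, Dapl1 and Mab21l1, summed to 390 and 680 CPM in cKO and 787 to 810 CPM in Ctrl. Of these 8, 4 were lower in cKO, beside the same 7.73%. Fewer cells of a type and less RNA per cell cannot be told apart in whole lenses.

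Across the 99 members, more genes rose than fell in cKO lenses. Those that rose included Asah1, which encodes acid ceramidase, and those that fell included Ap3b2, which encodes an adaptor subunit. Of the 99, 21 were higher in cKO (21.2%), beside 5.76% of the 11724 genes tested, and 5 were lower (5.05%), beside 7.73% of the genes tested. The threshold was an adjusted p of 0.05 by edgeR's quasi-likelihood test with Benjamini-Hochberg adjustment over all genes tested. The 21 include Acp5, Laptm5 and Slc11a1, which met the count minimum through the cKO libraries alone. Their membership thus rested on their cKO levels, and 18 were higher without these 3. Both cKO libraries lay above all Ctrl libraries for 37 members (37.4%), beside 22.8% of all genes tested, and below them for 14 members (14.1%), beside 28.7%. The groups overlapped for 48 members and for none of the 26 called ones. The median log2 fold change of the members was 0.196, against −0.056 over all genes tested, and 63 members (63.6%) had a positive value, beside 47.1% of all genes. The change was at least 2-fold for 12 of the 21 members that rose and for 2 of the 5 that fell. The 37, the 63 and the 12 also include Acp5, Laptm5 and Slc11a1.

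The members together made up 2856 and 2925 CPM in the cKO libraries, against 2139, 2208 and 2298 CPM in the Ctrl libraries. The 21 members that rose summed to 881 and 919 CPM in cKO and to 429, 439 and 444 CPM in Ctrl. The 5 that fell summed to 43.8 and 45.0 CPM in cKO and to 97.7, 87.2 and 93.9 CPM in Ctrl. These 2 sums are descriptions, since their genes were picked by the test. Scaling by total counts alone gave 28 members higher (28.3%) and 2 lower (2.02%), beside 10.5% and 6.12% of all genes in that fit. It also moved the median of all genes tested to 0.162 and that of the members to 0.423, so that the members' median stood 0.26 above that of all genes, against 0.25 with TMM scaling. The calls depended on which libraries were in the fit. Without Ctrl 1, 2 members were higher and 0 lower, without Ctrl 3 2 were higher and 0 lower, Asah1 among them in both fits, and without Ctrl 2 none passed in edgeR. Of all genes, 6 to 30 were higher and 15 to 52 lower in these 3 fits. An unadjusted edgeR p under 0.05 with a positive value was found for 27, 28 and 27 members without Ctrl 1, 3 and 2. Such counts over all genes were not taken for these fits. With all libraries, 31 of 99 members and 1737 of 11724 genes tested met that mark. Without cKO 1, 35 of 98 members tested were higher and 14 lower (35.7% and 14.3%), beside 14.5% and 23.3% of all genes in that fit. Without cKO 2, 30 were higher and 18 lower (30.3% and 18.2%), beside 17.7% and 23.9% of all genes.

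**Figure D1:**
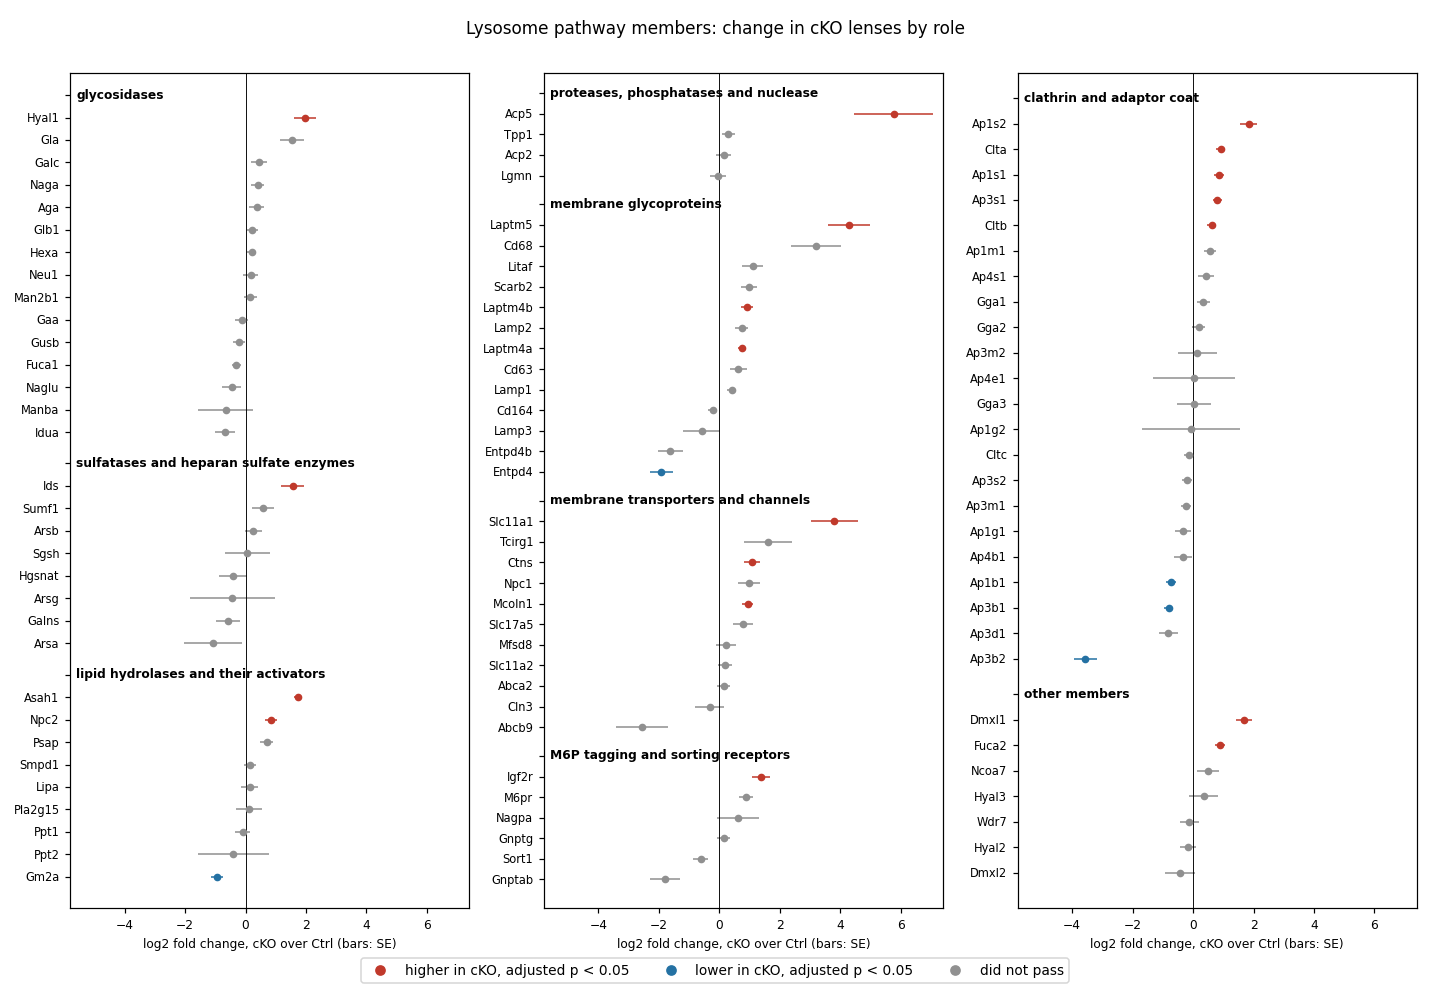
Log2 fold change of 95 of the 99 members, cKO over Ctrl, grouped by role (points: estimate from edgeR; bars: SE). Red points passed the test as higher in cKO (19 members), blue points as lower (5 members) and grey points did not pass (71 members); M6P stands for mannose 6-phosphate.

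The glycosidases cleave sugars from glycoproteins, glycolipids and matrix polysaccharides. Of 17 members, 2 were higher in cKO, none was lower, and the median log2 fold change was 0.21. Hexa, which encodes the alpha subunit of a hexosaminidase, had 50.6 and 56.8 CPM in cKO and 45.8, 41.8 and 51.9 CPM in Ctrl. The groups overlapped for Hexa, and its log2 fold change of 0.21 (SE 0.15) did not pass the test. Hyal1, a hyaluronidase, had 23.6 and 11.7 CPM in cKO and 3.71, 5.66 and 4.22 CPM in Ctrl (log2 fold change 1.96, SE 0.35, edgeR adjusted p = 0.0234). Its expected counts included fractions, which mark reads shared with other genes, so its level is uncertain. The same limit holds for all 14 members with such counts, Lamp1, Npc1, Gnptg and Ap1g2 among them. Gla, the alpha-galactosidase that clears globotriaosylceramide, was named after its values were seen. It had 22.1 and 9.31 CPM in cKO and 4.73, 6.69 and 4.84 CPM in Ctrl, without overlap, and missed the threshold (log2 fold change 1.54, SE 0.39, edgeR adjusted p = 0.0508). Gla passed in DESeq2, with DESeq2's size factors, with total-count scaling, without a filter and in both fits on FPKM (adjusted p = 0.00493 to 0.0492), but not with the replicate block (0.252). A further 12 glycosidases did not pass, with log2 fold changes of −0.69 (Idua) to 0.44 (Galc).

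The 9 sulfatases and heparan sulfate enzymes, which take apart sulfated glycosaminoglycans, had a negative median log2 fold change of −0.41, and 1 was higher in cKO. Ids, iduronate 2-sulfatase, had 3.02 and 5.21 CPM in cKO and 1.35, 1.46 and 1.38 CPM in Ctrl. The groups did not overlap, and the log2 fold change was 1.56 (SE 0.39, edgeR adjusted p = 0.048), which was no longer past the threshold in either fit on FPKM or without a filter on low counts (adjusted p = 0.0545 to 0.0611). The most abundant member was Hgsnat, an acetyltransferase of heparan sulfate degradation, with 64.4 and 21.1 CPM in cKO and 67.5, 43.6 and 58.7 CPM in Ctrl. Its level in cKO 1 was 3.05 times that in cKO 2, and the groups overlapped.

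Among 10 lipid hydrolases and their activators, 3 were higher and 1 was lower in cKO. Asah1, acid ceramidase, which splits ceramide into sphingosine and a fatty acid, had 69.0 and 71.4 CPM in cKO and 21.1, 23.4 and 18.8 CPM in Ctrl. The 2 cKO pools were nearly equal, and the log2 fold change was 1.74 (SE 0.15, edgeR adjusted p = 0.00441). Npc2 encodes the soluble protein that hands cholesterol to NPC1. It had 66.2 and 99.6 CPM in cKO and 47.8, 44.9 and 47.0 CPM in Ctrl (log2 fold change 0.83, SE 0.19, edgeR adjusted p = 0.0414). Its membrane partner Npc1, named after its values were seen, had 3.02 and 5.21 CPM in cKO and 2.23, 2.00 and 2.07 CPM in Ctrl, without overlap, and did not pass (log2 fold change 0.97, SE 0.36, edgeR adjusted p = 0.125).

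Gm2a, the GM2 activator, which presents a ganglioside for degradation, fell. It had 8.21 and 11.02 CPM in cKO and 18.7, 18.4 and 18.4 CPM in Ctrl (log2 fold change −0.94, SE 0.19, edgeR adjusted p = 0.0307), and the call was lost with total-count scaling and in both fits on FPKM (adjusted p = 0.0953 to 0.118). Psap, the precursor of the saposins, which assist several sphingolipid hydrolases, was the most abundant of the lipid group. It had 184 and 306 CPM in cKO and 143, 149 and 162 CPM in Ctrl, without overlap but with a wide gap between the cKO pools, and did not pass (log2 fold change 0.69, SE 0.23, edgeR adjusted p = 0.0917), although it did in DESeq2 (adjusted p = 0.0208). Smpd1, Lipa, Pla2g15, Ppt1 and Ppt2 had log2 fold changes of −0.41 to 0.15, and their groups overlapped.

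The group of proteases, phosphatases and nuclease held 4 members, of which Acp5 rose. Acp5, tartrate-resistant acid phosphatase, a marker of osteoclasts and some macrophages, had 84 and 11 counts in cKO and 1, 1 and 0 counts in Ctrl. The ratio of the summed counts, scaled to library size, was 63.0 with an exact 95% interval of 17.0 to 528 that covers counting error only (edgeR adjusted p = 0.0391). Acp5 met the count minimum through the cKO libraries alone, did not pass on log2(FPKM + 1) (adjusted p = 0.072), and was not tested with cKO 1 left out. Lgmn, an asparaginyl endopeptidase, was the most abundant member per gene length in Ctrl, at 122 ± 35 FPKM in cKO (SD, n = 2) and 110 ± 16 FPKM in Ctrl (SD, n = 3). Its CPM values were 279 and 156 in cKO and 197, 249 and 222 in Ctrl, so that 1 cKO pool lay above and 1 below every Ctrl library. Tpp1, tripeptidyl peptidase, had 46.8 and 73.0 CPM in cKO and 45.1, 45.0 and 55.7 CPM in Ctrl, and the groups overlapped.

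**Figure D2:**
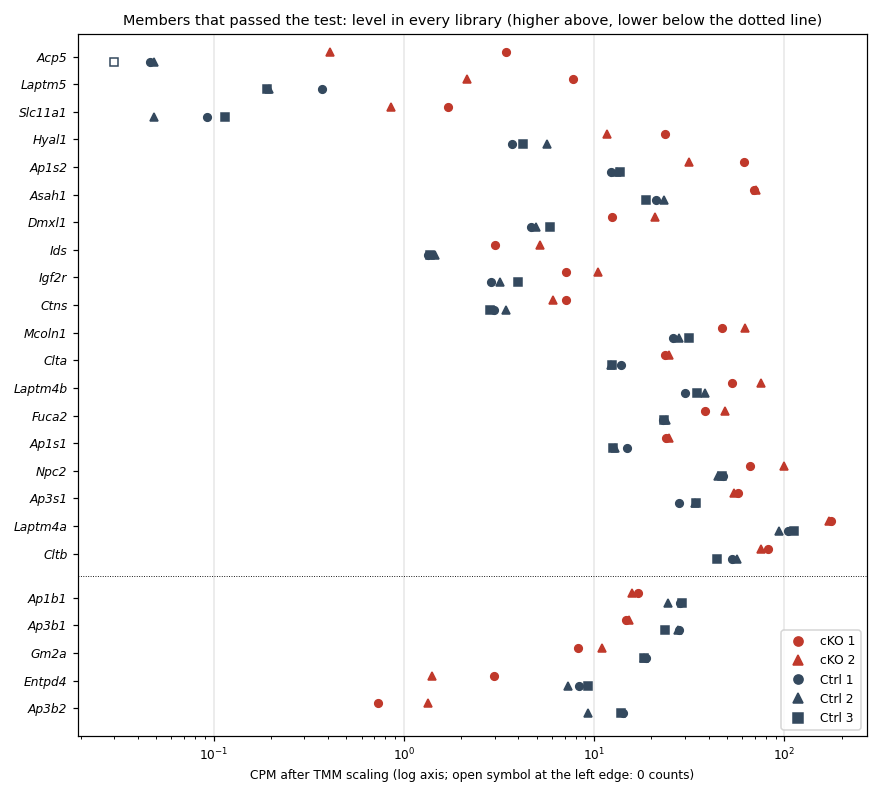
CPM after TMM scaling of 24 of the 26 members that passed the test, on a log axis, in cKO 1 and 2 (red) and in Ctrl 1, 2 and 3 (dark blue). The 19 members above the dotted line were higher in cKO, with the widest spread between the cKO pools for Acp5, and the 5 below it were lower; an open symbol marks 0 counts.

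Of 13 membrane glycoproteins, 3 were higher in cKO and 1 was lower, and the median log2 fold change was 0.75. Laptm4a and Laptm4b encode lysosomal proteins with several membrane spans. Laptm4a had 176 and 171 CPM in cKO and 105, 93.5 and 113 CPM in Ctrl (log2 fold change 0.75, SE 0.14, edgeR adjusted p = 0.0255). Laptm4b had 53.3 and 75.3 CPM in cKO and 30.2, 38.4 and 34.8 CPM in Ctrl (log2 fold change 0.90, SE 0.20, edgeR adjusted p = 0.0361). Laptm5, their relative in blood cells, had 7.80 and 2.16 CPM in cKO and 0.371, 0.195 and 0.192 CPM in Ctrl (log2 fold change 4.28, SE 0.70, edgeR adjusted p = 0.0199). Like Acp5, it met the count minimum through the cKO libraries alone.

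The classical lysosome membrane proteins did not pass edgeR's test with TMM scaling. Lamp1 had 175 and 223 CPM in cKO and 140, 155 and 156 CPM in Ctrl, and Lamp2 had 121 and 74.7 CPM in cKO and 57.6, 59.5 and 58.2 CPM in Ctrl. Neither overlapped between the groups, and the log2 fold changes were 0.41 (SE 0.16, edgeR adjusted p = 0.135) for Lamp1 and 0.75 (SE 0.22, edgeR adjusted p = 0.0678) for Lamp2. Cd63, a tetraspanin of late endosomes, had 195 and 105 CPM in cKO and 111, 89.4 and 90.6 CPM in Ctrl, with overlap. Scarb2, a membrane protein that also acts as a sorting receptor, had 9.27 and 8.19 CPM in cKO and 5.01, 3.37 and 4.76 CPM in Ctrl (log2 fold change 0.99, SE 0.27, edgeR adjusted p = 0.0569). Cd68, a glycoprotein abundant in macrophages, had 8.99 and 2.87 CPM in cKO and 1.16, 0.635 and 0.154 CPM in Ctrl (log2 fold change 3.20, SE 0.83, edgeR adjusted p = 0.0532). With total-count scaling Lamp2, Cd63, Scarb2 and Cd68 passed (adjusted p = 0.0241, 0.0496, 0.037 and 0.0338). Lamp2 and Cd68 also passed in DESeq2 and both fits on FPKM, Cd68 without a filter, Cd63 in both fits on FPKM, and Scarb2 in DESeq2 and on log2(FPKM + 1), while Lamp1 passed in none of these. Lamp2, Cd63, Scarb2 and Cd68 were named after their values were seen.

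Entpd4, a nucleotide phosphatase of the Golgi and lysosome, was the 1 glycoprotein that fell. It had 2.98 and 1.42 CPM in cKO and 8.35, 7.27 and 9.25 CPM in Ctrl (log2 fold change −1.92, SE 0.38, edgeR adjusted p = 0.0293). It shares reads with its near copy Entpd4b, which had 2.29 and 1.08 CPM in cKO and 5.80, 4.34 and 5.41 CPM in Ctrl, so the split between them is uncertain. Entpd4b was named after its values were seen. The pair together had 5.27 and 2.50 CPM in cKO and 14.2, 11.6 and 14.7 CPM in Ctrl, again without overlap.

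Among 11 membrane transporters and channels, 3 were higher in cKO, none was lower, and the median log2 fold change was 0.77. Mcoln1, which encodes the calcium channel mucolipin 1 of the lysosome membrane, had 47.2 and 61.9 CPM in cKO and 26.1, 28.0 and 31.4 CPM in Ctrl (log2 fold change 0.94, SE 0.17, edgeR adjusted p = 0.0255). Ctns, the cystine exporter mutated in cystinosis, had 7.11 and 6.07 CPM in cKO and 2.97, 3.47 and 2.84 CPM in Ctrl (log2 fold change 1.09, SE 0.26, edgeR adjusted p = 0.045). Without a filter on low counts Ctns did not pass (adjusted p = 0.0579). Slc11a1, a metal ion transporter of phagocytes, had 42 and 23 counts in cKO and 2, 1 and 3 counts in Ctrl, or 1.72 and 0.857 CPM in cKO and 0.0928, 0.0488 and 0.115 CPM in Ctrl. These Ctrl values lay at or below the 3 counts that a count of 0 allows, and the gene met the count minimum through the cKO libraries alone (edgeR adjusted p = 0.0309). Abca2, a lipid transporter of the ABC family, was the other abundant member, with 22.1 and 31.5 CPM in cKO and 22.7, 21.8 and 28.4 CPM in Ctrl, and the groups overlapped. Tcirg1, a proton pump subunit that the rule kept because of its symbol, had 0.939 and 7.49 CPM in cKO and 1.30, 1.07 and 1.73 CPM in Ctrl, so that its cKO pools lay on either side of the Ctrl libraries, and it was named after its values were seen. The cathepsins and the Atp6 genes of the pathway, which the rule left out, had 5 of 11 and 4 of 8 tested genes higher in cKO. None was lower, and of all genes tested 5.76% were higher and 7.73% lower.

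For the tagging and sorting of hydrolases, 1 of 6 members was higher in cKO. Igf2r, the large mannose 6-phosphate receptor, which also binds IGF2, had 7.11 and 10.5 CPM in cKO and 2.88, 3.22 and 3.99 CPM in Ctrl (log2 fold change 1.39, SE 0.29, edgeR adjusted p = 0.033), and did not pass on log2(FPKM + 0.1), where the adjusted p was 0.0619. M6pr, the small mannose 6-phosphate receptor, had 24.2 and 18.5 CPM in cKO and 13.5, 9.03 and 11.9 CPM in Ctrl, and did not pass (log2 fold change 0.89, SE 0.23, edgeR adjusted p = 0.0536). It passed in DESeq2, with DESeq2's size factors in edgeR, with total-count scaling and in both fits on FPKM. Gnptab, which encodes the catalytic subunits of the enzyme that starts the mannose 6-phosphate tag, had 0.572 and 1.19 CPM in cKO and 2.55, 2.83 and 3.88 CPM in Ctrl (log2 fold change −1.80, SE 0.50, edgeR adjusted p = 0.0627), and passed only in DESeq2 among the other settings with all libraries (adjusted p = 0.0172). Gnptg, its gamma subunit, had 9.03 and 11.2 CPM in cKO and 9.33, 8.05 and 10.1 CPM in Ctrl, with overlap. Sortilin (Sort1), a sorting receptor that needs no mannose 6-phosphate, had 11.4 and 10.7 CPM in cKO and 12.6, 18.6 and 19.7 CPM in Ctrl, without overlap (log2 fold change −0.62, SE 0.24, edgeR adjusted p = 0.134). Gnptab and Gnptg were named after their values were seen.

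The clathrin and adaptor coat held 22 members, with 5 higher, 3 lower and a median log2 fold change of 0.02, and its calls split by the kind of subunit. Both clathrin light chains were higher. Clta had 23.5 and 24.7 CPM in cKO and 13.9, 12.3 and 12.4 CPM in Ctrl (log2 fold change 0.91, SE 0.15, edgeR adjusted p = 0.021), and Cltb had 81.8 and 75.5 CPM in cKO and 53.4, 56.2 and 44.4 CPM in Ctrl (log2 fold change 0.62, SE 0.15, edgeR adjusted p = 0.0494). The clathrin heavy chain Cltc had 74.5 and 81.1 CPM in cKO and 76.9, 93.7 and 88.9 CPM in Ctrl, with overlap, and its log2 fold change of −0.15 (SE 0.15) did not pass and changed sign with total-count scaling.

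Adaptor complexes bind cargo at membranes, some of them together with clathrin, and each is built from large, medium and small subunits. Of 5 small subunits, 3 rose. Ap1s2 had 61.4 and 31.5 CPM in cKO and 12.3, 13.2 and 13.6 CPM in Ctrl (log2 fold change 1.83, SE 0.28, edgeR adjusted p = 0.017). Ap1s1 had 23.9 and 24.8 CPM in cKO and 14.99, 12.8 and 12.5 CPM in Ctrl (log2 fold change 0.85, SE 0.16, edgeR adjusted p = 0.0258). Ap3s1 had 57.3 and 54.6 CPM in cKO and 27.8, 33.8 and 34.6 CPM in Ctrl (log2 fold change 0.80, SE 0.15, edgeR adjusted p = 0.0263). The groups did not overlap for any of these 3, and they belong to the AP-1 and AP-3 complexes, which serve the Golgi and endosomes.

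Of 8 large subunits, 3 fell, all of the same complexes. Ap3b2, the AP-3 beta subunit known mainly from neurons, had 0.735 and 1.34 CPM in cKO and 14.2, 9.32 and 13.8 CPM in Ctrl (log2 fold change −3.57, SE 0.39, edgeR adjusted p = 0.00755). Ap3b1, the AP-3 beta subunit found in most tissues, had 14.8 and 15.3 CPM in cKO and 27.9, 27.7 and 23.6 CPM in Ctrl (log2 fold change −0.81, SE 0.16, edgeR adjusted p = 0.0283). Ap1b1, an AP-1 large subunit, had 17.1 and 15.9 CPM in cKO and 28.5, 24.5 and 28.9 CPM in Ctrl (log2 fold change −0.73, SE 0.16, edgeR adjusted p = 0.0355). The calls of Ap3b1 and Ap1b1 were likewise lost with total-count scaling and in both fits on FPKM, with adjusted p-values of 0.0662 to 0.155, while Ap3b2 and Entpd4 passed in all of these. Of the 8 large adaptor subunits measured, 7 had a negative log2 fold change (median −0.53), and of the 5 small ones 4 had a positive one (median 0.80). These signs depended on the setting. Ap1g2 and the small subunit Ap3s2 turned positive with total-count scaling (0.265 and 0.0115) and in both fits on FPKM. Ap1g2 had 0 and 16 counts in cKO and 17, 2 and 2 in Ctrl. On FPKM Ap1g1 turned positive (0.314 and 0.405) and Ap4e1 negative. Ap1g1, Ap4e1 and Ap3s2 were named after their values were seen. The division into large and small subunits was likewise made after the values were seen and was not tested.

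A further 7 members stood in none of the role lists and were put together after the table was read. Fuca2, Hyal2 and Hyal3 among them are also glycosidases by function, and with them 3 of 20 glycosidases were higher and 0 lower. Dmxl1, which is related to a yeast factor that assembles the proton pump, had 12.4 and 20.9 CPM in cKO and 4.64, 4.98 and 5.87 CPM in Ctrl (log2 fold change 1.69, SE 0.28, edgeR adjusted p = 0.0199). Its relative Dmxl2 had 6.29 and 2.20 CPM in cKO and 4.64, 7.57 and 4.88 CPM in Ctrl, with overlap. Fuca2, an alpha-fucosidase, had 38.1 and 48.5 CPM in cKO and 23.0, 23.9 and 23.4 CPM in Ctrl (log2 fold change 0.89, SE 0.16, edgeR adjusted p = 0.0227). The other alpha-fucosidase, Fuca1, had 18.1 and 20.4 CPM in cKO and 24.7, 22.4 and 24.3 CPM in Ctrl, so that both cKO values lay below the Ctrl libraries, and did not pass (log2 fold change −0.31, SE 0.15, edgeR adjusted p = 0.219). Dmxl2 and Fuca1 were named after their values were seen.

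Ranked by FPKM, which is scaled to gene length, the members' order was headed by much the same genes in both groups. Lgmn, Cd63, Lamp1, Psap and Laptm4a held the top 5 ranks in cKO and in Ctrl. The 2 sets of values overlapped in their spread for Lgmn, while Laptm4a had 103 ± 10 FPKM in cKO (SD, n = 2) and 53.3 ± 7.7 FPKM in Ctrl (SD, n = 3). Hgsnat stood at rank 25 in cKO with 16.7 ± 10.5 FPKM and at rank 11 in Ctrl with 19.8 ± 4.1 FPKM, and its cKO pools overlapped the Ctrl libraries. The top 5 members held 42.6% and 38.1% of the members' summed FPKM in cKO and 40.4 to 41.0% of it in Ctrl.

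Several lysosome genes carry CACGTG, or the longer TCACGTGA that contains it, near their start, where the factors TFEB, TFE3 and MITF are known to bind. Both strings read the same on the 2 strands. They were searched in the 250 bases before each gene's start in RefSeq promoters of the mouse build GRCm38.p6, of which 79 of the 99 members had one. CACGTG was present for 17 of the 79 members (21.5%), beside 6.86% of 27025 genes, and TCACGTGA for 7 of 79 (8.86%), beside 0.907%. Among members that rose, 3 of 15 with a promoter held CACGTG and 2 held TCACGTGA, among those that fell 0 of 4 held either, and among those not called 14 of 60 held CACGTG and 5 held TCACGTGA. The windows below show the 3 members that rose with a match, and 2 members with several matches that did not pass, Lamp1 and Gla. They are written 5′ to 3′ on the gene's strand, and capitals mark the matches.
Mcoln1 (chr8:3500428-3500499, plus strand): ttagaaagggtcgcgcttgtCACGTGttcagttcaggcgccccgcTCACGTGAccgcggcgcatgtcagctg
Igf2r (chr17:12769707-12769774, minus strand): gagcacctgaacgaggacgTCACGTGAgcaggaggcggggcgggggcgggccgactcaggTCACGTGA
Ap1s2 (chrX:163908882-163908927, plus strand): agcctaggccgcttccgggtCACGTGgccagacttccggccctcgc
Lamp1 (chr8:13159080-13159160, plus strand): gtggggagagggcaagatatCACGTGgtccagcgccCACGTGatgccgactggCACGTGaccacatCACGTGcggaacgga
Gla (chrX:134601174-134601252, minus strand): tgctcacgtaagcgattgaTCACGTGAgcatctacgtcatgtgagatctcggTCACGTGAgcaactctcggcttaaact
A match is a description of these letters and not a binding site, and binding was not measured. Transcripts of the factors themselves did not pass the test. Tfeb had 5.64 and 7.97 CPM in cKO and 5.06, 5.66 and 4.65 CPM in Ctrl, with overlap, Tfe3 had 6.29 and 7.45 CPM in cKO and 9.0, 7.86 and 5.11 CPM in Ctrl, with overlap, and Mitf had 2.21 and 2.35 CPM in cKO and 4.13, 5.42 and 5.03 CPM in Ctrl, without overlap (log2 fold change −1.09, SE 0.30, edgeR adjusted p = 0.0603). Tfec had 29 counts in cKO 1 and 0 in the other 4 libraries and was not tested. These 4 factors were named after their values were seen.

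Signalling at the lysosome surface, where amino acids control the kinase mTOR, was read from a list of 19 genes outside the pathway. Of these, 17 were tested, and 5 were higher and 2 lower in cKO, beside 5.76% and 7.73% of all genes tested. Mtor itself had 5.43 and 7.37 CPM in cKO and 17.1, 20.8 and 25.9 CPM in Ctrl (log2 fold change −1.73, SE 0.26, edgeR adjusted p = 0.0161). Tsc2, which restrains mTOR through Rheb, was also lower (log2 fold change −0.81, SE 0.16, edgeR adjusted p = 0.0277). The 5 that rose were Rheb, the Rag GTPase Rragd, the Ragulator subunits Lamtor2 and Lamtor4, and Fnip1, a partner of folliculin, with log2 fold changes of 0.55 to 1.48. Among 7 tested markers of lysosome storage or damage, Grn, which encodes progranulin, had 176 and 174 CPM in cKO and 46.8, 48.7 and 55.9 CPM in Ctrl (log2 fold change 1.79, SE 0.14, edgeR adjusted p = 0.0037). Lgals3, a galectin that gathers on damaged lysosomes, had 230 and 70.8 CPM in cKO and 36.5, 31.2 and 17.6 CPM in Ctrl (log2 fold change 2.40, SE 0.52, edgeR adjusted p = 0.0355).

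Macrophages are rich in lysosomes, and their markers were higher in cKO lenses and uneven between the cKO pools. Of 18 macrophage markers, none of which is a member, 10 were tested and 9 were higher, beside 5.76% of all genes tested. Most of the 9 had few counts in Ctrl and were thus tested through their cKO levels, so the filter partly fixed this count. C1qa, for example, had 561 and 207 counts in cKO and 6, 0 and 3 counts in Ctrl. The summed level of the 18 markers was 153.9 and 37.2 CPM in cKO and 3.85, 1.76 and 3.19 CPM in Ctrl. The most abundant were C1qc, C1qb and C1qa. Of the 18, 15 were higher in cKO 1 than in cKO 2, 2 were lower (Cx3cr1 with 6 and 35 counts and Mertk with 0 and 11), and 1 had no count in either. The defining markers Adgre1 and Spi1 had 38 and 44 counts in cKO 1 and 0 in cKO 2. These 4 markers were named after their values were seen. The summed level was 4.13 times as high in cKO 1 as in cKO 2, and the 9 called markers had ratios of 1.24 to 10.1 (median 4.09). The 21 members that rose had ratios of 0.580 to 8.37 with a median of 0.967, and 10 of them were higher in cKO 1 and 11 in cKO 2. Acp5, Laptm5, Slc11a1, Hyal1 and Ap1s2 were among those higher in cKO 1. Ratios between the cKO pools over all genes were not taken. Fits with 1 cKO pool left out cannot separate macrophages from other cells. The 21 were picked with both pools, and cKO 2 also lay above every Ctrl library in the summed macrophage markers. Of other cell types, 10 endothelial markers summed to 38.4 and 31.5 CPM in cKO and 15.8 to 24.0 CPM in Ctrl, and none passed. Of 7 fibroblast markers 4 were tested, with 2 higher and 1 lower, while their sum was 26.1 and 8.53 CPM in cKO and 21.7 to 23.8 CPM in Ctrl. Summed levels overlapped between the groups for 8 retina and 6 red blood cell markers, with none called, and 8 pigment cell markers summed to 3.51 and 0.298 CPM in cKO and 6.10 to 13.4 CPM in Ctrl, with none called. The part of other cell types in the members' changes was not tested.

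**Figure D3:**
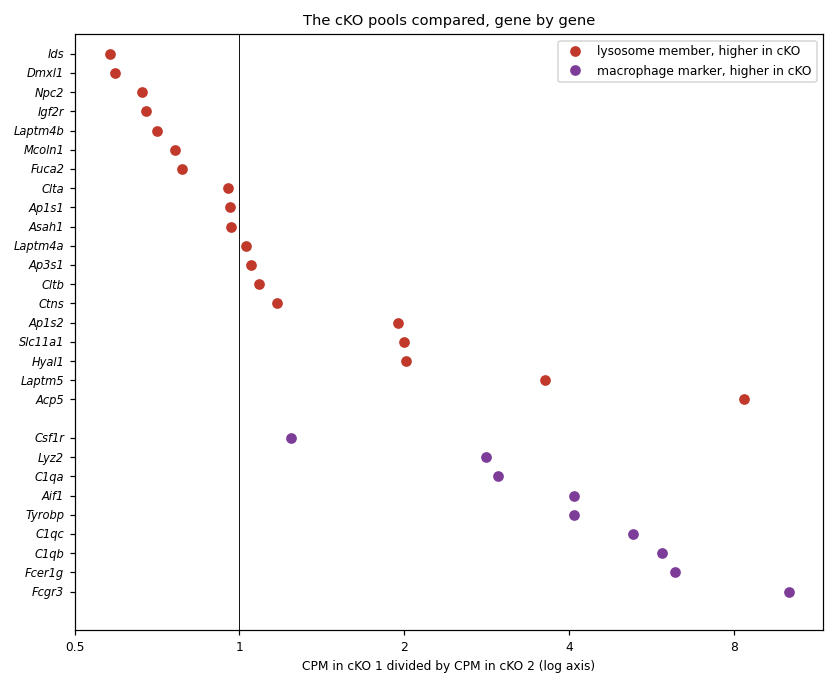
Ratio of CPM in cKO 1 to CPM in cKO 2 on a log axis for 19 of the 21 members that rose and for the 9 macrophage markers that rose. The ratios of the members shown run from 0.580 to 8.37, on both sides of 1, while all 9 macrophage markers lie above 1, with a median of 4.09.

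Gene length moved with the changes. With all tested genes divided by length into 3 equal classes, the median log2 fold change was 0.24 in the short class (up to 2026 bases), −0.13 in the middle class (up to 3368 bases) and −0.36 in the long class. Over the same classes the members had medians of 0.57 (22 members), 0.32 (44 members) and −0.13 (33 members), each above that of all genes. In the short class 8 members were higher and 0 lower, in the middle class 10 were higher and 1 lower, and in the long class 3 were higher and 4 lower. Over all genes tested, the shares higher and lower were 10.3% and 3.84% in the short class, 4.32% and 7.14% in the middle class and 2.64% and 12.2% in the long class, the last beside 12.1% of the long members lower. The 3 long members that rose were Ids, Igf2r and Dmxl1, at 4966, 8888 and 11387 bases, while Ap3b2, Ap3b1, Ap1b1 and Gm2a, which fell, had 3568 to 4127 bases. The large adaptor subunits had 2630 to 4902 bases. The small ones with a positive change, Ap4s1, Ap1s1, Ap3s1 and Ap1s2, had 1020, 1353, 1359 and 2439 bases. Ap3s2, the small one with a negative change, had 5413 bases. Ap4s1 was named after its values were seen. The part of gene length in these changes was not tested.

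**Figure D4:**
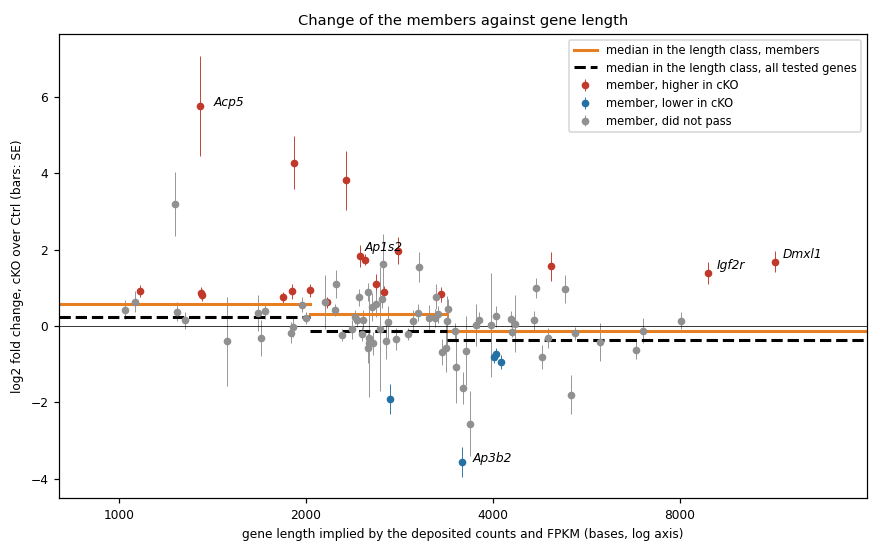
Log2 fold change of 95 members, cKO over Ctrl (bars: SE), against the gene length implied by the deposited counts and FPKM, on a log axis. Orange lines give the median of all 99 members and dashed black lines the median of all tested genes in each of the 3 length classes; the orange line lies above the black one in every class, and both fall with length.

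The 15 pathway genes under the count minimum had few counts in every library. Nearest below it, Ap1s3, a small AP-1 subunit, had 11 and 6 counts in cKO and 1, 0 and 4 counts in Ctrl, Napsa, an aspartic protease, had 10 and 0 counts in cKO and 1, 1 and 2 counts in Ctrl, and Ap4m1 had 9 and 3 counts in cKO and 8, 7 and 16 counts in Ctrl. Just above it, Ap1g2 had 0 and 16 counts in cKO and 17, 2 and 2 counts in Ctrl, and Abcb9, a peptide transporter, had 2 and 4 counts in cKO and 15, 20 and 12 counts in Ctrl. For 27 of the 99 members the cKO pools differed by more than 2-fold, and the share over all genes was not taken. The 73 members that did not pass had SEs of 0.14 to 1.62 (median 0.27).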

How the data were processed

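Lens RNA from 5 pools was extracted with an integrity number above 8.0, and 1 µg of it entered poly(A) libraries read as 150 bp pairs, per the labels' protocols. The authors deposited expected (estimated) counts and FPKM for 22183 genes. RSEM, Trimmomatic and the build GRCm39 are named in the submitters' processing notes. Neither the aligner nor any use of strand is given in the sources used here. Per the file headers, the deposited FPKM values relate counts to gene length and to library depth. Between 6.03 and 7.47% of the deposited expected counts per library were not whole (tolerance 0.004), including those of 14 members, and all were rounded.

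Low genes were removed by filterByExpr (a minimum count of 10 and a minimum total of 15), which left 11724, and libraries were scaled by TMM. The quasi-likelihood F test of edgeR 4.0.16 (in R 4.3.3) compared cKO with Ctrl, with no other term, and the threshold was a Benjamini-Hochberg adjusted p of 0.05 over those genes. CPM values are TMM scaled. SE was taken from the F statistic. Where a library had 0 counts, up to 3 counts remain possible, or 0.112 to 0.123 CPM in cKO and 0.115 to 0.146 CPM in Ctrl, and this floor covers counting error only. The script was checked on simulated data.

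Alternatives were total-count scaling, DESeq2's size factors, DESeq2 1.42.0, no filter, limma 3.58.1 on log2(FPKM + 1) and log2(FPKM + 0.1), a replicate block, and leaving out each library. Gene length was the median over libraries of count divided by FPKM and by library total. Promoters came from RefSeq for GRCm38.p6, a build other than that of the counts, and were matched by symbol. The members and all lists were chosen with earlier results of these data known. By rule the text names called members, the 2 most abundant of each role, called genes of the lysosome lists, the 3 most abundant genes of marker lists, Yap1, and members next to the count minimum. Others are marked as named after their values were seen. Genes of marker lists besides these are given as sums. Some members that these rules would name are counted but not reported here.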

Additional observations from a re-analysis of the deposited data

How the results depend on the processing

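The reported values were 21 members higher, 5 lower and a median log2 fold change of 0.196. With total-count scaling 2 members were lower (2.02%, beside 6.12% of all genes) and the median was 0.423. DESeq2 gave 8 lower (8.08%), beside 13% of all genes. Limma gave 3 lower (3.03%) on FPKM + 1 and 2 lower (2.02%) on FPKM + 0.1, beside 6.34% and 7.12% of all genes. The median on FPKM + 0.1 was 0.404. The remaining counts under these settings, under DESeq2's size factors and without a filter were within 1.5 times the reported ones. With the replicate number as a block (replicate block), 2 members were higher (2.02%), Asah1 among them, and 1 was lower (1.01%), Ap3b2. Of all genes, 0.58% were higher and 0.913% lower in that fit. An unadjusted edgeR p under 0.05 was found there for 24 members with a positive and 6 with a negative value. Such counts over all genes were not taken for that fit. Only 2 numbers were shared by the groups, and deviations correlated at 0.111 between cKO 1 and Ctrl 1 and at −0.0830 between cKO 2 and Ctrl 2, so the numbers were not taken to pair the pools. Leaving out 1 library gave 0 to 35 members higher, 0 to 18 lower and medians of 0.117 to 0.357, while 6 to 2197 of all genes were higher and 15 to 2964 lower in the same fits. A fit without a cKO library assumes that the lone cKO pool varies like the Ctrl pools. The log2 fold change of Cltc was 0.0643 with total-count scaling, 0.240 on FPKM + 1 and 0.251 on FPKM + 0.1, and that of Lgmn was 0.146, 0.127 and 0.128, against negative values of both with TMM. With 1 library left out, Lgmn ranged from −0.526 to 0.326, Abca2 from −0.143 to 0.359, Tpp1 from −0.054 to 0.572 and Hgsnat from −1.44 to 0.188. The cause of these changes was not tested. With 2 and 3 pools, chosen by phenotype in cKO, small changes of weakly expressed members were not detectable.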

Other observations

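Genes that bring lysosomes together with other membranes and move them through the cell lie outside the pathway and had 1 call in each of 2 lists, beside 5.76% of all genes higher and 7.73% lower. Of 11 tested tethering and fusion genes, Vti1b, a SNARE of late endosomes, was higher in cKO, with 81.3 and 67.4 CPM in cKO and 45.9, 43.4 and 43.2 CPM in Ctrl (log2 fold change 0.75, SE 0.14, edgeR adjusted p = 0.0262). None was lower, and the median log2 fold change was 0.25. Of the 11, 5 lay above and 5 below all Ctrl libraries, beside 22.8% and 28.7% of all genes tested. Of 9 tested positioning genes, Arl8a, a small GTPase that couples lysosomes to kinesin, was higher, with 74.0 and 51.3 CPM in cKO and 25.7, 28.8 and 22.1 CPM in Ctrl (log2 fold change 1.29, SE 0.21, edgeR adjusted p = 0.019). Its close relative Arl8b, named after its values were seen, had 31.2 and 23.5 CPM in cKO and 22.8, 29.4 and 27.8 CPM in Ctrl, with overlap.

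Gpnmb, a glycoprotein that accumulates in lysosomal storage, had 470 and 40.2 CPM in cKO and 13.5, 6.88 and 0.576 CPM in Ctrl. The groups did not overlap, but both varied widely, and Gpnmb did not pass the test (log2 fold change 5.20, SE 1.35, edgeR adjusted p = 0.0532). It was named after its values were seen. Gpnmb and Lgals3, like most macrophage markers, were higher in cKO 1 than in cKO 2, while Grn was nearly equal in both. The part of macrophages in these levels was not tested.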
